A study of Mus musculus with 8 samples.

Results

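The 7 genes described here encode guanine nucleotide exchange factors of 3 families, the RasGRP proteins (*Rasgrp1*, *Rasgrp2*, *Rasgrp3*), the RasGRF proteins (*Rasgrf1*, *Rasgrf2*) and 2 of the Rapgef proteins (*Rapgef4*, *Rapgef5*). They are 7 of the 54752 genes listed in the count tables, and all 7 were among the 17865 genes that passed the filter on low counts. The 7 genes were chosen by symbol with earlier results of the stress vs. control comparison known. Their stress differences were thus part of the choice, and they are given below as a description. Where a gene is counted as lower at the threshold, this is part of the description and not a test of these genes.

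RNA-seq had been performed on wild type C57BL/6 fetal brains (C57BL/6Slac in the study's methods) at E15.5, an age at which neurons are being born in large numbers. Pregnant dams of the stress group were exposed to chronic unpredictable mild stress (CUMS), a changing schedule of mild stressors, and dams of the control group were not. The 8 brains analysed comprised a control group of 4 (F36 and F37, both female, with M30 and M31, both male) and a stress group of 4 (F34 and F35, both female, with M28 and M29, both male), 1 library each, with 2 brains per sex and group. By the study's library table, each group was a single litter. Litter and condition cannot be told apart here, and every p-value measures the spread among littermates. That table also describes the tissue as part of the brain where the study's text says whole brain.

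Small GTPases of the Ras and Rap families act as switches that are active when bound to GTP. Exchange factors turn them on by releasing GDP, and GTPase-activating proteins turn them off. RasGRP proteins respond to diacylglycerol and calcium, RasGRF proteins to calcium and calmodulin downstream of NMDA-type glutamate receptors, and RAPGEF4, also known as EPAC2, to cyclic AMP. In neurons these inputs couple receptor activity to the ERK cascade, adhesion and the shape of dendrites and synapses.

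The total was between 25320109 and 29105710 counts per brain, and 26944 to 27366 genes had at least 1 count. Mitochondrial genes took 2.1% to 2.31% of the counts. Across all genes tested, 1298 were lower and 1160 higher with stress when called by an adjusted p under 0.05 (edgeR's quasi-likelihood test with sex in the model, Benjamini-Hochberg adjustment), and the median Log2FC was 0.00. Without stress brain M29 these counts were 854 and 736. The neuronal markers were abundant in every brain, with a summed level of 6444 to 6815 CPM (counts scaled to library size) over 8 genes.

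The genes lie on different chromosomes of the mouse genome mm10, apart from *Rasgrp1* and *Rapgef4*, which are both on chromosome 2. *Rasgrp1* (ENSMUSG00000027347.18) spans chr2:117279993-117343001 on the minus strand, and *Rapgef4* (ENSMUSG00000049044.16) spans chr2:71981240-72257474 on the plus strand. *Rasgrp2* (ENSMUSG00000032946.16) spans chr19:6399340-6415216 on the plus strand, and *Rasgrp3* (ENSMUSG00000071042.12) spans chr17:75435896-75529054 on the plus strand. *Rasgrf1* (ENSMUSG00000032356.12) spans chr9:89909908-90026977 on the plus strand, and *Rasgrf2* (ENSMUSG00000021708.17) spans chr13:91880400-92131656 on the minus strand. *Rapgef5* (ENSMUSG00000041992.9) spans chr12:117516479-117759737 on the plus strand. Exons of *Rapgef4* share 5.05% of their bases with the antisense gene *Rapgef4os2*, which had 2 to 9 counts per brain. Exons of *Rasgrp2* share 2.14% with *Gm14965* on the other strand, which had 0 to 2 counts. With no strand setting given for the counting, reads in these stretches cannot be assigned to one strand.

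RefSeq promoter windows of 300 bases, from 250 bases before a transcription start to 50 after it, were read for all 7 genes (build GRCm38.p6), 10 windows in all. The windows shown are for *Rasgrp2*, *Rasgrp3* and *Rasgrf2*, the 3 genes with the largest stress differences. *Rasgrp2* and *Rasgrp3* have 2 windows each, of which the one with the lower coordinates is shown. The windows shown differ widely in base composition. Capitals mark matches on either strand to the GC box core GGGCGG, the CCAAT box, the cyclic AMP response half-site TGACG, the E-box CAGCTG or the cell-cycle element TTTGAA. Sequences run 5′ to 3′ on the gene's strand.
Rasgrp2, chr19:6399625-6399924, plus strand: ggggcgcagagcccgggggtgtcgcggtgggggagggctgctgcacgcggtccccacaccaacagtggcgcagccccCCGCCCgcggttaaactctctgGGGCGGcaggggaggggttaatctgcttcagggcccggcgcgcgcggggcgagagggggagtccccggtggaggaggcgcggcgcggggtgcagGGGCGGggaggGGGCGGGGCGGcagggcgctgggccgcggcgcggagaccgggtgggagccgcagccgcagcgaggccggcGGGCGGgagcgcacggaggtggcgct
Rasgrp3, chr17:75435655-75435954, plus strand: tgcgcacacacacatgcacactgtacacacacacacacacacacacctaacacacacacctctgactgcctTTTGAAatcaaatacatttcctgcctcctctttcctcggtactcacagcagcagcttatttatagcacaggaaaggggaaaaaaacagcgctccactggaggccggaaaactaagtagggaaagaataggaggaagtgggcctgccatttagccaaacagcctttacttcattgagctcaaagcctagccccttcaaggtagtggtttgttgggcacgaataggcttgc
Rasgrf2, chr13:92131779-92132078, minus strand: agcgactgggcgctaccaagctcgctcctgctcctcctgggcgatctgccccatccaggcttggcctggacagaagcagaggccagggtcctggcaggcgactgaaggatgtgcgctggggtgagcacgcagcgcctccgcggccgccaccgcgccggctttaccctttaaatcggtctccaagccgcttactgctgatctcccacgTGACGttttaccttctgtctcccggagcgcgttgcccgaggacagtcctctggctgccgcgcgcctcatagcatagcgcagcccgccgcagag

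The *Rasgrp2* window shown was 80.0% G and C and held 6 matches to GGGCGG, some of them overlapping, and its second window was 66.0% G and C with 2 matches to GGGCGG. The *Rasgrp3* window shown was 48.3% G and C and held 1 match, to TTTGAA, and its second window was 52.7% G and C with no match. The window of *Rasgrf2* was 66.0% G and C and held 1 match, to TGACG. The median over all 32851 windows was 52.7%. No motif was shared by all 3 of these windows. Over the 10 windows, GGGCGG was found in 6, CCAAT in 2, TGACG in 2, CAGCTG in 1 and TTTGAA in 1. Among all windows the shares were 35.7%, 37.4%, 20.8%, 16.3% and 17.9%, respectively. A match is a run of letters and was not tested as a binding site.

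Levels of different genes were compared as FPKM, the CPM value divided by the exon length in kilobases. This length merges all annotated exons of a gene and can differ from that of the transcripts present, so FPKM values depend on the annotation. *Rasgrp2* and *Rapgef4* had similar control means of 36.1 and 36.2 CPM, with exon lengths of 12384 and 6677 bases. In the control group, *Rapgef5* was the highest at 9.08 ± 0.29 FPKM (SD, n = 4), followed by *Rapgef4* at 5.42 ± 0.48 FPKM. *Rasgrp2* (2.91 ± 0.05) and *Rasgrf2* (2.91 ± 0.19) came next, and their control brains overlapped. *Rasgrp1* (1.70 ± 0.11) and *Rasgrf1* (1.61 ± 0.08) overlapped as well, and *Rasgrp3* was the lowest at 1.35 ± 0.07 FPKM. The highest mean was 6.71 times the lowest. The remaining neighbours in this order did not overlap between any control brains. On CPM, which does not account for length, *Rasgrp1* and *Rasgrf1* exchanged places and the order was otherwise the same. The summed level of the 7 genes was between 24.0 and 26.0 FPKM in the control brains and between 21.0 and 23.1 FPKM in the stress brains.

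**Figure D1:**
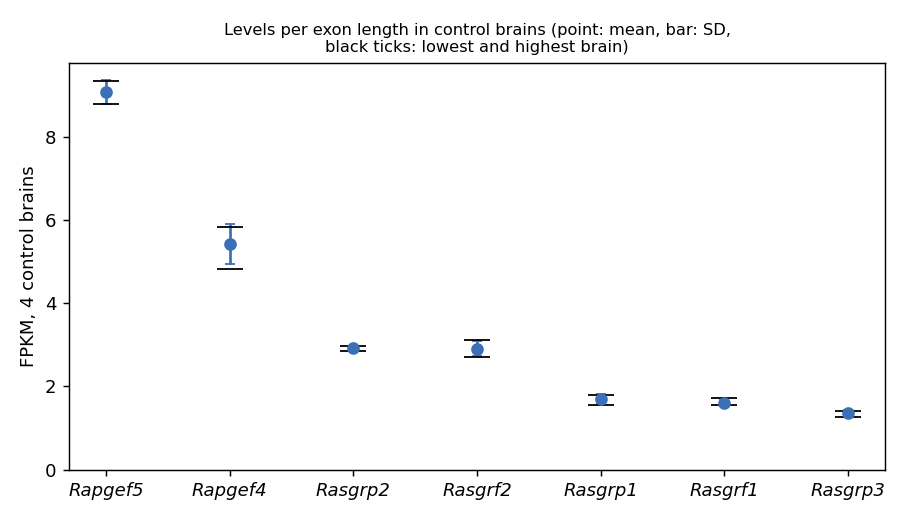
Level of each gene in the 4 control brains in FPKM, ordered from highest to lowest, with the mean as a point, the SD as a bar and the lowest and highest brain as black ticks. *Rapgef5* stands at 9.08 FPKM and *Rasgrp3* at 1.35 FPKM, and the ranges of *Rasgrp2* and *Rasgrf2* overlap.

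Comparing the stress group with the control group, 6 of the 7 genes had a Log2FC below 0 and the median over the 7 was -0.24, beside 49.5% of all genes below 0. At the threshold used for all genes, 5 of the 7 were lower (*Rasgrp2*, *Rasgrp3*, *Rasgrf1*, *Rasgrf2* and *Rapgef4*), where 7.27% of all genes tested were lower. None of the 7 was higher, where 6.49% of all genes tested were. In 4 genes (*Rasgrp2*, *Rasgrp3*, *Rasgrf2* and *Rapgef5*) every stress brain was below every control brain, which was the case for 8.22% of all genes tested. Because this comparison was known when the genes were chosen, nothing further is read from these counts. In bulk tissue, fewer cells that express a gene and less RNA per cell cannot be told apart.

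**Figure D2:**
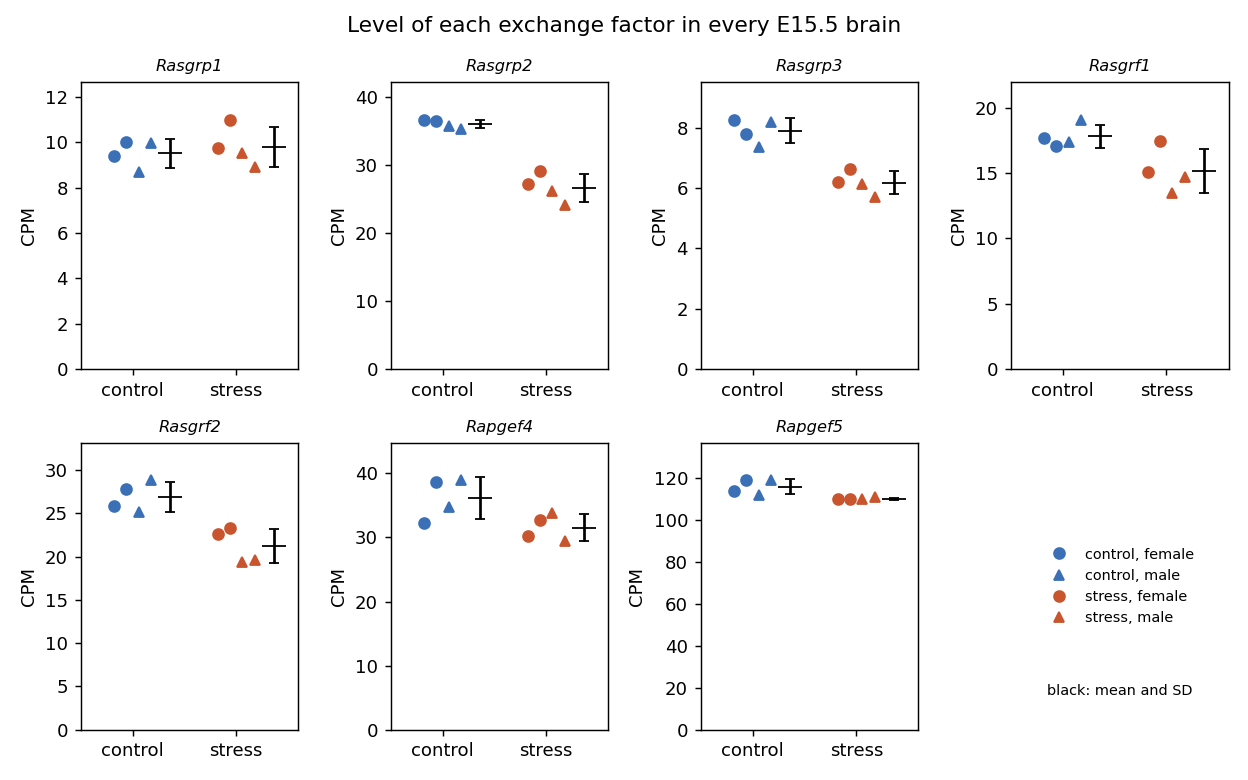
CPM of each gene in every brain, with circles for females, triangles for males, blue for control and orange for stress, and the mean and SD of each group in black. All y axes start at 0. The 4 stress brains lie between 24.1 and 29.1 CPM for *Rasgrp2*, under the lowest control brain at 35.3 CPM, while the groups overlap for *Rasgrp1*, *Rasgrf1* and *Rapgef4*.

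Among the RasGRP genes, *Rasgrp2* encodes CalDAG-GEFI, a calcium-sensitive activator of Rap known from platelets and striatal neurons. Its level was 36.7 CPM in F36, 36.5 in F37, 35.8 in M30 and 35.3 in M31 of the control group, and 27.2 in F34, 29.1 in F35, 26.2 in M28 and 24.1 in M29 of the stress group. The coefficient of variation was 1.80% in the control brains and 7.71% in the stress brains. At the 988 to 1036 counts of the control brains, counting noise alone gives a wider spread on average than 1.80%. The difference in spread was not tested. The group means were 36.1 ± 0.65 CPM (SD, n = 4) and 26.7 ± 2.05 CPM (SD, n = 4). The Log2FC was -0.44 (SE 0.04), or 26.2% lower, the largest difference among the 7 genes. It stayed between -0.47 and -0.40 when each brain was left out in turn.

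*Rasgrp3* encodes an activator of both Ras and Rap that is known from endothelial cells and B lymphocytes. It was measured at 8.26 CPM in F36, 7.79 in F37, 7.36 in M30 and 8.19 in M31 of the control group, and at 6.19 in F34, 6.64 in F35, 6.13 in M28 and 5.70 in M29 of the stress group. The groups did not overlap, with means of 7.90 ± 0.41 CPM and 6.17 ± 0.38 CPM (SD, n = 4 each). The Log2FC was -0.36 (SE 0.08), between -0.39 and -0.32 with any brain left out. It is the least abundant of the 7 genes per length.

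*Rasgrp1*, which encodes an activator of Ras best known from T lymphocytes and also expressed in the brain, differed from the others. Its level was 9.39 CPM in F36, 10.05 in F37, 8.67 in M30 and 9.98 in M31 of the control group, and 9.74 in F34, 11.02 in F35, 9.52 in M28 and 8.91 in M29 of the stress group. Stress and control brains were interspersed, with means of 9.52 ± 0.64 CPM and 9.80 ± 0.89 CPM (SD, n = 4 each). The Log2FC of 0.04 (SE 0.07) was smaller than its error, and its sign was negative (-0.01) without stress brain F35 and in the males alone (-0.02).

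Of the RasGRF genes, *Rasgrf2* encodes a calcium-regulated activator of Ras and Rac. Its level was 25.8 CPM in F36, 27.8 in F37, 25.1 in M30 and 28.8 in M31 of the control group, and 22.6 in F34, 23.3 in F35, 19.4 in M28 and 19.6 in M29 of the stress group. All 4 stress brains were lower than the lowest control brain, and the stress males were the lowest. The means were 26.9 ± 1.73 CPM and 21.2 ± 2.01 CPM (SD, n = 4 each), with a Log2FC of -0.34 (SE 0.06) and a range of -0.39 to -0.28 with any brain left out.

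*Rasgrf1*, the related gene that is expressed from the paternal allele in mouse brain, was measured at 17.7 CPM in F36, 17.1 in F37, 17.4 in M30 and 19.1 in M31 of the control group. In the stress group it was 15.1 CPM in F34, 17.5 in F35, 13.5 in M28 and 14.7 in M29. Stress female F35 lay within the control range and the other stress brains below it. The means were 17.8 ± 0.90 CPM and 15.2 ± 1.66 CPM (SD, n = 4 each), with a Log2FC of -0.24 (SE 0.07). The value was -0.10 in the females and -0.37 in the males, and between -0.31 and -0.18 with any brain left out. *Rasgrf1* was no longer counted as lower without control brain M31, stress brain F34 or stress brain M28.

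*Rapgef4* encodes a cyclic AMP-activated exchange factor for Rap that is known from neurons and endocrine cells. It was measured at 32.3 CPM in F36, 38.7 in F37, 34.8 in M30 and 38.9 in M31 of the control group, and at 30.2 in F34, 32.7 in F35, 33.8 in M28 and 29.5 in M29 of the stress group. Stress brains F35 and M28 lay above the lowest control brain, F36. The means were 36.2 ± 3.21 CPM and 31.6 ± 2.04 CPM (SD, n = 4 each), with a Log2FC of -0.20 (SE 0.05). *Rapgef4* was no longer counted as lower without control brain F37 or M31, or without stress brain F34 or M29.

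*Rapgef5* encodes a Rap activator without a cyclic AMP-binding domain. Its level was 114 CPM in F36, 119 in F37, 112 in M30 and 119 in M31 of the control group. The stress brains were at 110 CPM in F34, 110 in F35, 110 in M28 and 111 in M29. At their 2784 to 3205 counts, counting noise alone gives a wider spread on average, so this closeness is not read as a result. The groups did not overlap, but the difference was small, with means of 116 ± 3.69 CPM and 110 ± 0.40 CPM (SD, n = 4 each) and a Log2FC of -0.07 (SE 0.03). *Rapgef5* was not counted as lower at the threshold.

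The remaining genes of the same families offer a comparison that was added after their values had been seen. *Rasgrp4*, the fourth RasGRP gene, was sparse, with 38 to 61 counts per brain, and did not pass the test (Log2FC -0.08, adjusted p = 0.805, edgeR). *Rapgef1*, *Rapgef2*, *Rapgef3* and *Rapgef6* were not called either, with Log2FC of -0.01, -0.10, -0.19 and 0.07 and adjusted p-values of 0.857, 0.0528, 0.0930 and 0.195. *Rapgef3* encodes EPAC1, the other cyclic AMP-activated Rap exchange factor, and was measured at 11.4 ± 0.78 CPM (SD, n = 4) for control brains and 10.04 ± 0.82 CPM (SD, n = 4) for stress brains. *Rapgefl1* was down-regulated from 38.2 ± 2.39 CPM to 32.0 ± 3.01 CPM (SD, n = 4 each, Log2FC -0.26, adjusted p = 0.000739). Differences between these genes and the 7 members were not tested.

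The sexes were compared as a question that had played no part in the choice of genes. None of the 7 genes differed between the 4 males and the 4 females (edgeR, sex term with condition in the model, adjusted p = 0.841 to 0.999), where 0.0896% of all genes tested did. At an unadjusted p under 0.05, edgeR gave 1055 of the 17865 genes tested. It gave 1 of the 7, *Rasgrp2*, with a Log2FC male vs. female of -0.10 (SE 0.04), and DESeq2 gave 0. *Rasgrp2* averaged 30.4 ± 6.06 CPM in males and 32.4 ± 4.94 CPM in females (SD, n = 4 each), with both conditions included.

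The stress differences of males and females were then compared by an interaction term. None of the 7 genes was called (edgeR, adjusted p = 0.717 to 0.982), where 0.00560% of all genes tested, a single gene, was. That gene is *Stambp* (adjusted p = 0.00257), named here after its value was seen. At an unadjusted p under 0.05, edgeR gave 1128 of the 17865 genes tested. It gave 2 of the 7, and DESeq2 gave 0. The 2 were *Rasgrf1* with an interaction of -0.28 (SE 0.12) and *Rasgrf2* with -0.24 (SE 0.10) on the log2 scale. Both had the more negative value in males, where *Rasgrf2* was at -0.47 (SE 0.07) against -0.23 (SE 0.07) in females. For *Rasgrp2* the values were -0.50 (SE 0.06) in males and -0.38 (SE 0.06) in females, and in each sex both stress brains lay below both control brains.

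**Figure D3:**
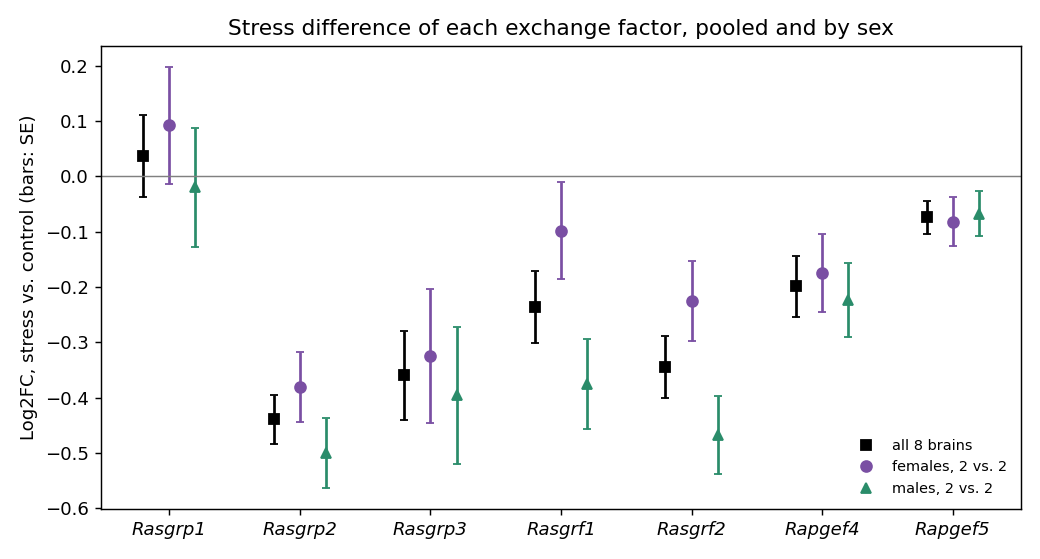
Log2FC, stress vs. control, of each gene with its SE as a bar, for all 8 brains (black squares), the females (purple circles) and the males (green triangles). *Rasgrf1* and *Rasgrf2* show the widest gap between the sexes, -0.10 against -0.37 and -0.23 against -0.47, and neither gap passed the adjusted test.

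Other genes of the Ras and Rap pathway were taken from 8 lists with 141 genes, all of which were tested. Of these 141 genes, 39 were down-regulated (27.7%, beside 7.27% of all genes) and 3 were up-regulated (2.13%, beside 6.49% of all genes), and the median Log2FC was -0.06. The lists had been assembled with earlier results of these data known, so the shares are a description. None of the 141 genes was called for sex. At an unadjusted p under 0.05, edgeR gave 16 of the 141, beside 1055 of the 17865 genes tested. DESeq2 called 0 of the 141 for sex and gave 8 at an unadjusted p under 0.05. None of the 141 was called for the interaction either. Here edgeR gave 10 of the 141 at an unadjusted p under 0.05, beside 1128 of the 17865 genes tested. DESeq2 called 0 of the 141 for the interaction and gave 2 at an unadjusted p under 0.05.

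Among the upstream inputs, 5 of 7 NMDA receptor subunit genes were down-regulated and none was up-regulated. *Grin2b*, the subunit gene that prevails in the fetal brain, went from 204 ± 7.83 CPM to 175 ± 11.7 CPM (SD, n = 4 each, Log2FC -0.23, adjusted p = 7.9e-05). The obligatory subunit *Grin1* (-0.17) as well as *Grin2d* (-0.23) and *Grin3a* (-0.19) were also lower, with adjusted p-values of 0.00377, 0.00146 and 0.000352. Of 19 genes for adenylyl cyclases, protein kinase A and cyclic AMP phosphodiesterases, 9 were down-regulated and none was up-regulated. These included the cyclases *Adcy1* (184 ± 10.5 to 150 ± 12 CPM, Log2FC -0.30), *Adcy5* (-0.26) and *Adcy7* (-0.39) and the kinase subunit *Prkar1b* (-0.14).

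Of 24 genes for phospholipase C, diacylglycerol kinases, protein kinase C and calmodulin, 7 were down-regulated and none was up-regulated. The diacylglycerol kinase gene *Dgkk* had a Log2FC of -0.42 (adjusted p = 7.1e-05). *Prkca* (-0.26) and *Prkce* (-0.17) encode protein kinases C and were lower as well. Of 21 other genes with a CDC25-type exchange domain, 5 were down-regulated and none was up-regulated, among them *Rasgef1a* (-0.36), *Rapgefl1* (-0.26), *Rasgef1c* (-0.24) and *Kndc1* (-0.14). *Kndc1* was not called without control brain M31 (adjusted p = 0.0524) or stress brain M29 (adjusted p = 0.101).

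Of 17 genes for GTPase-activating proteins, which oppose the exchange factors, 7 were also down-regulated and none was up-regulated. The examples *Sipa1l3* (60.7 ± 1.61 to 51.3 ± 2.38 CPM, Log2FC -0.24), *Garnl3* (-0.24), *Rap1gap* (-0.21) and *Rap1gap2* (-0.17) all encode proteins with a Rap GTPase-activating domain. Thus genes of both the activating and the inactivating side were in the lower group.

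Among 15 GTPase genes, 1 was up-regulated, *Rap2c* (Log2FC 0.12, adjusted p = 0.00493), and 2 were down-regulated, *Rit2* (-0.16) and *Hras* (-0.11). *Rit2* was not called without stress brain F34 (adjusted p = 0.0532). *Hras* was not called without control brain F36, M30 or M31 or stress brain F35 or M29 (adjusted p = 0.051 to 0.154), nor by DESeq2 (adjusted p = 0.0714). Of 23 effector and MAP kinase cascade genes, 3 were down-regulated, namely the kinase *Map2k1* (-0.22), its scaffold *Ksr1* (-0.24) and the Rap effector *Radil* (-0.21), and 20 did not pass the test.

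Among genes known to be induced by ERK signalling, those called went in both directions. Of 15, *Spred3* was down-regulated (-0.15, adjusted p = 0.00705), *Dusp4* (0.11, adjusted p = 0.0142) and *Ccnd1* (0.13, adjusted p = 0.0324) were up-regulated, and 12 did not pass the test. The list's median Log2FC was -0.04. Of the 12, *Spred1* (0.02), *Phlda1* (0.03) and *Fosl1* (0.06) lay above 0. The others lay below 0, the lowest being *Dusp5* (-0.27), *Spry4* (-0.26) and *Etv4* (-0.21). *Ccnd1*, a cyclin, was not called without control brain F36 or M30 or stress brain F34, M28 or M29 (adjusted p = 0.0587 to 0.156). It was also not called by DESeq2 (adjusted p = 0.0906), with no filter (0.0577) or with no sex term (0.0812). *Dusp4*, which encodes a phosphatase of ERK, was not called without control brain M30 or stress brain F34 or M29 (adjusted p = 0.0616 to 0.0706).

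**Figure D4:**
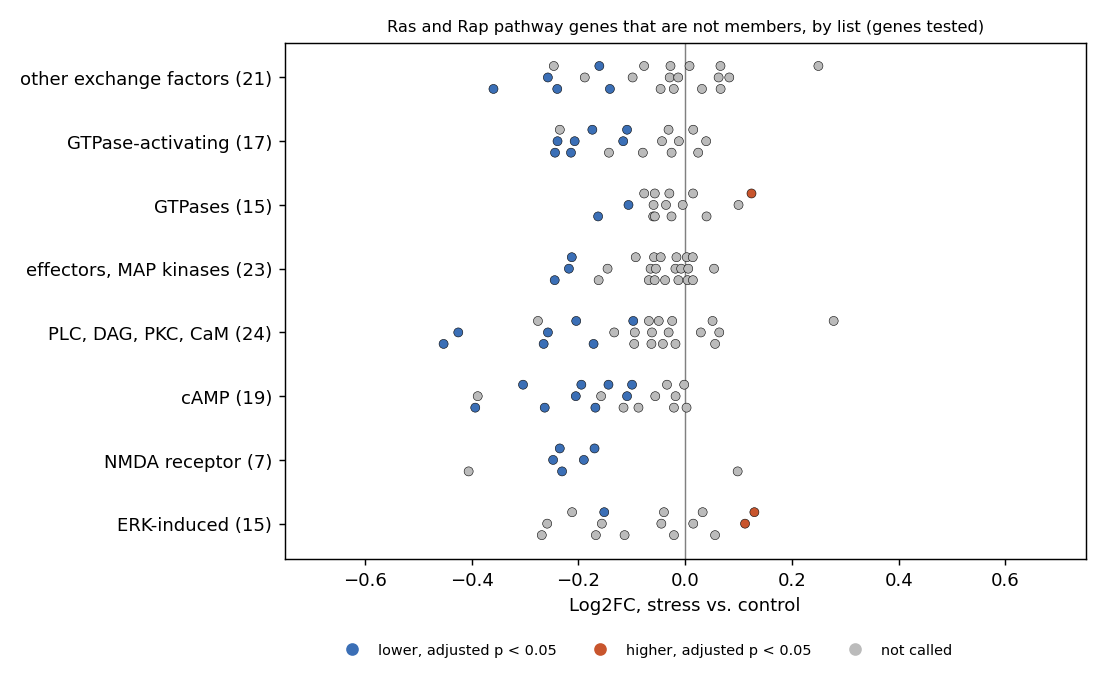
Log2FC, stress vs. control, of the 141 pathway genes that are not members, by list with the number tested, in blue where lower and orange where higher at an adjusted p-value under 0.05 and grey otherwise. The 39 blue points spread over all 8 lists, with 5 of 7 in the NMDA receptor list, and the 3 orange points are *Rap2c*, *Dusp4* and *Ccnd1*.

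Markers of cell types that a whole fetal brain can hold were measured beside the 7 genes. Of 9 striatal neuron markers, 5 were down-regulated, including *Drd2* (Log2FC -0.37) and *Penk* (-0.40), and none was up-regulated. *Drd1* (-0.05), *Tac1* (-0.02), *Foxp1* (-0.03) and *Rarb* (-0.17) did not pass the test. The 9 markers summed to 203 to 212 CPM in the control brains and 178 to 196 CPM in the stress brains. Of 8 general neuronal markers, 4 were down-regulated, with Log2FC of -0.09 to -0.13. *Dcx* (0.06), *Tubb3* (-0.02), *Map2* (-0.04) and *Nefl* (-0.07) did not pass the test. The general neuronal markers summed to 6565 to 6815 CPM in the control brains and 6444 to 6749 CPM in the stress brains, ranges that overlap. Of 7 endothelial markers, 4 were down-regulated, including *Flt1* (-0.41) and *Kdr* (-0.29), while *Tie1* (0.14), *Pecam1* (-0.09) and *Cdh5* (-0.05) did not pass the test. The endothelial markers summed to 164 to 181 CPM and 148 to 159 CPM. *Rasgrp2* is known from striatal neurons and *Rasgrp3* from endothelium, and the part of these cells in the differences of both genes was not tested.

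Several progenitor markers were higher in the stress group. Of 8 radial glia markers, 4 were up-regulated, the other 4 had Log2FC of -0.10 to -0.02 and did not pass the test, and the list's median was 0.05. Of 5 intermediate progenitor markers, 4 were up-regulated, including *Eomes* (91.1 to 108 CPM, Log2FC 0.25) and *Neurog2* (70.7 to 83.7 CPM, Log2FC 0.24). The summed level of the intermediate progenitor markers was 311 to 337 CPM in the control brains and 344 to 384 CPM in the stress brains. Of 5 oligodendrocyte precursor markers, *Pdgfra* (-0.31) and *Olig1* (-0.26) were down-regulated. *Sox10* (-0.01), *Olig2* (-0.07) and *Cspg4* (-0.14) did not pass the test. The 5 markers summed to 117 to 129 CPM in the control brains and 104 to 109 CPM in the stress brains. The part of these shifts in the values of the 7 genes was not tested.

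Markers of cells outside the neural tissue were measured as well. Mesenchymal markers summed to 16.0 to 29.1 CPM in the control brains and 20.7 to 63.3 CPM in the stress brains, with the highest value in M28, and 3 of the 5 tested were up-regulated. *Dcn* (0.39) and *Foxc1* (-0.10) did not pass the test. Choroid plexus markers summed to 2.43 to 10.5 CPM and 2.59 to 33.5 CPM, with the highest value in F34, and 2 of 5 were up-regulated. These were *Ttr*, at 2.65 ± 2.93 CPM for control and 10.59 ± 13.15 CPM for stress (SD, n = 4 each), and *Kcne2*, with 4 to 24 counts per brain. *Clic6* (0.30), *Kl* (-0.37) and *Folr1* (-0.20) did not pass the test. Without M28 the Log2FC of *Rasgrp2*, *Rasgrp3*, *Rasgrf2*, *Rasgrf1* and *Rapgef4* was -0.45, -0.37, -0.32, -0.18 and -0.23. Without F34 it was -0.43, -0.35, -0.36, -0.22 and -0.18. *Rasgrf1* was no longer counted as lower without M28, and neither *Rasgrf1* nor *Rapgef4* was without F34. These genes were chosen with the stress comparison known, so their values are a description. The part of mesenchyme and choroid plexus in them was not tested. Of the erythroid markers, 2 of 6 were up-regulated and 1 was down-regulated, with a summed level of 238 to 273 CPM and 241 to 251 CPM. The 2 were *Hbb-y* (Log2FC 0.84) and *Hba-x* (1.09), whose groups did not overlap, and the 1 was *Hbb-bs* (-0.14). Most of the sum came from *Hba-a1* and *Hbb-bs*, with control means of 89.15 and 150.5 CPM, beside 3.36 for *Hbb-y* and 1.735 for *Hba-x*.

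RasGRP proteins are well known from platelets and lymphocytes. Platelet markers summed to 5.68 to 6.52 CPM in the control brains and 5.56 to 6.74 CPM in the stress brains. *Pf4*, with 6 to 14 counts per brain, and *Gp9*, with 1 to 6, did not pass the filter. None of the 3 tested was called, namely *Itga2b* (Log2FC -0.09), *Gp1ba* (0.37) and *Gp1bb* (-0.42). *Gp1bb* had 10 to 19 counts and shares 92.9% of its exon bases with other genes. Such low counts say little about platelets. Of the lymphocyte markers, *Cd3g* had no count in any brain, *Cd3e* had none in some, and the 2 tested were not called. One of these 2, *Lck*, averaged 5.87 CPM over the control brains and 5.59 CPM over the stress brains, and the lymphocyte markers summed to 5.80 to 6.63 CPM and 5.04 to 6.55 CPM. None of 6 microglia markers was called, with a summed level of 34.4 to 37.9 CPM and 33.1 to 37.6 CPM.

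**Figure D5:**
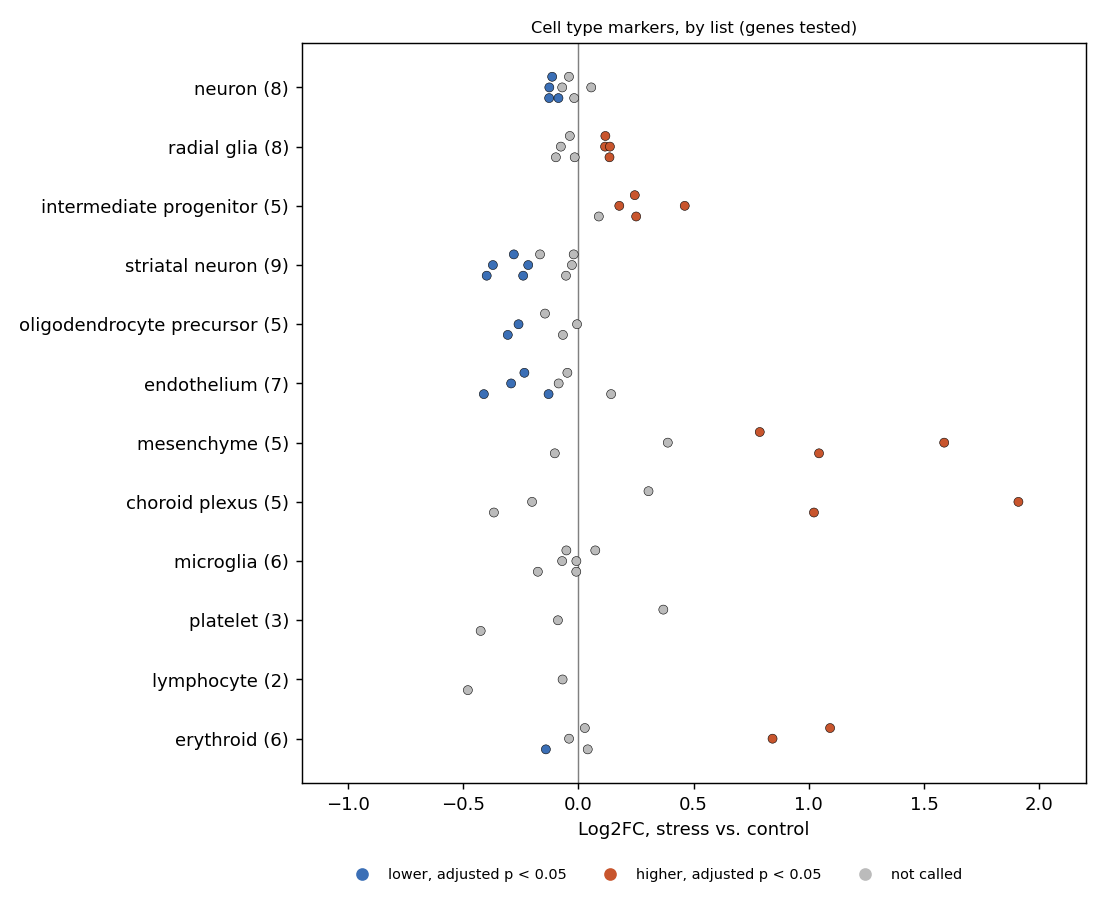
Log2FC, stress vs. control, of marker genes by cell type with the number tested, in blue where lower and orange where higher at an adjusted p-value under 0.05 and grey otherwise. Called striatal, endothelial and general neuronal markers lie below 0, called radial glia and intermediate progenitor markers lie above 0, and no microglia, platelet or lymphocyte marker was called.

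Lastly, the 7 genes were compared with each other and with all genes tested by their pattern of log2 CPM over the 8 brains. Since the brains form 2 litters and 2 conditions, these correlations carry the difference between the groups as well as the spread within them, and they are given as a description. *Rasgrp2* and *Rasgrp3* were the most alike (Pearson's r = 0.97, 8 brains), and the 15 pairs without *Rasgrp1* had r between 0.575 and 0.968. The 6 pairs with *Rasgrp1* had r between 0.0374 and 0.284. The genes named here and below have the highest r among the 17865 tested, so their r is high by this choice. The genes most like *Rasgrp2* were *Hpca*, a calcium sensor of neurons, *Kat2a* and *Hps6* (r = 0.989 to 0.993). Those most like *Rasgrf2* were *Grin2b*, *Mapre2* and *Opcml* (r = 0.984 to 0.985), and those most like *Rasgrf1* were *Glrb*, *Rab27b* and *Minar1* (r = 0.980 to 0.992).

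Among the genes most like *Rasgrp3* were *Ctsk* (r = 0.990) and *Gucy1b1* (r = 0.989). Those most like *Rapgef4* were *Gne*, *Enpp5* and *Ptger3* (r = 0.965 to 0.977), and those most like *Rapgef5* were *Pfkfb4*, *Ptdss1* and *Paqr9* (r = 0.961 to 0.979). *Rasgrp1* was matched best by *Ppp2r3a*, *Unc5b* and *Gm37198* (r = 0.930 to 0.953), whose Log2FC in the stress group were 0.00, 0.02 and 0.08.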

How the data were processed

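The authors used TopHat2 2.1.1 to align paired reads to mm10, and featureCounts 1.6.3 to count the pairs that fell on exons of GENCODE vM20 genes. The deposited values are raw counts per gene for 8 brains, 25320109 to 29105710 per brain, with no normalization. No option for strand or overlapping genes is given in the sources used here. Symbols were found for 54723 of 54752 identifiers.

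In R 4.3.3, genes were filtered with filterByExpr of edgeR 4.0.16 (minimum count 10, by group), TMM-normalized and fitted with glmQLFit and glmQLFTest with sex and condition as terms, and with their interaction. P-values were adjusted by Benjamini-Hochberg over all genes and called under 0.05. The SE is the size of the Log2FC divided by the square root of F. CPM used TMM-scaled totals, and log2 CPM a prior count of 2. The scripts were tested on simulated data.

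The members and all lists were chosen with earlier results of these data known. Named were all members, up to 4 called genes per pathway list and direction in order of p, and the 3 genes most like each member. A few genes that this rule takes are not reported here. The alternatives were DESeq2 1.42.0, RLE and upper-quartile factors, no filter, no sex term, each sex alone, each brain left out and CPM in place of FPKM. The counts of the study's other animals were not analysed here, and its model's batch term was not used because no batch is named for these 8 brains. P-values cover the spread among littermates only. Promoter sequences came from RefSeq (GRCm38.p6).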

Additional observations from a re-analysis of the deposited data

How the results depend on the processing

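The members, pathway genes and all genes were recounted under each alternative, and the cause of a change was not tested unless stated. Each sex alone was fitted with 4 brains in place of 8. With the females alone, 407 genes were lower and 295 higher, 16 pathway genes were lower and 0 higher, and 1 of the 7 members, *Rasgrp2*, was lower. With the males alone, 869 genes were lower and 664 higher, 32 pathway genes were lower and 3 higher, and 5 members were lower. DESeq2 gave 748 higher genes in place of 1160, and 911 lower in place of 1298. With no filter, 64 genes were called for sex and 37 for the interaction, in place of 16 and 1, and DESeq2 called 2 for the interaction. With each brain left out, 854 to 1308 genes were lower and 736 to 1057 higher, 1 to 3 pathway genes were higher and 3 to 5 members were lower. For sex, 0 to 1 pathway genes were called, the 1 being *Adcy1* without control brain M31, named after its value was seen, and 0 to 6 genes of all were called for the interaction.

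*Rasgrp1* turned from a Log2FC of 0.0374 to -0.0194 in the males alone and to -0.0118 without stress brain F35, the lowest of -0.0118 to 0.0910 with each brain left out. The value of *Rasgrf1* was -0.10 in the females and -0.37 in the males, and that of *Rasgrf2* -0.23 and -0.47. The other 6 members kept a negative sign in every setting. By CPM, *Rasgrp1* ranked 6 and *Rasgrf1* 5 by level. No paired analysis was possible because the groups share no replicate numbers. Depth limits *Rasgrp1* and *Rasgrp3* most, and 2 brains per sex and group limit the interaction.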
